A study of Mus musculus with 16 samples.

Results

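Rab GTPases are small switch proteins that sit on the membranes of the cell and decide which vesicle fuses where. Of the genes in the deposited table, 59 have a symbol made of Rab and a number, and 38 of these reached a mean of at least 5 CPM (the counts of a gene scaled to a library of 1000000 counts) over the 16 libraries. These 38 genes, of 56980 in the table, are described here. Of them, 9 are Rabs of the endosome and lysosome system (paralogs of Rab5, Rab7, Rab9, Rab11 and Rab32), and 29 are the others. Just inside the minimum lay Rab23 with 5.70 CPM, and just outside it Rab27a with 3.85 CPM. The endolysosomal Rab38 (0.913 CPM) and Rab9b (0.16 CPM) were among the 21 symbols under it. The rule for the 38 genes uses symbol and level alone, but it was set with earlier results of these data known. All 38 passed the filter on low counts.

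The libraries came from primary mouse microglia, the macrophages of the brain, that were either wild type (WT) or knockout (KO) for Grn. Grn encodes progranulin, a secreted protein that is carried to lysosomes and is processed there into granulins. Cells of each genotype received 2 uM rimeporide, an inhibitor of the plasma membrane sodium-proton exchanger NHE1, or the DMSO vehicle, for 72 hours, which gave 4 groups of 4 libraries: WT in DMSO, KO in DMSO, WT in rimeporide and KO in rimeporide. The cells were shaken off mixed glial cultures grown from the cortex and hippocampus of newborn mice. The labels name no strain, sex or knockout allele, and the cultures stand for neonatal microglia grown in serum, not for adult microglia in the brain. The series calls the replicates biological and does not say whether a number marks a shared culture across groups.

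Each Rab protein is inserted into a membrane by its lipid tail, is switched on by an exchange factor, binds effectors such as tethers and motor adaptors while it holds GTP, and is switched off by a GTPase-activating protein. GDI then extracts it from the membrane for another round. On the route to the lysosome, Rab5 marks the early endosome and is replaced by Rab7 on the late endosome, while Rab11 serves the recycling endosome, Rab9 returns mannose 6-phosphate receptors to the Golgi, and Rab32 serves lysosome-related organelles. Several Rabs, among them Rab8a and Rab10, are substrates of the kinase LRRK2. Levels of mRNA, which are what was measured, do not show how much of a Rab protein is switched on.

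The promoters of 4 endolysosomal Rabs are shown because 3 of these genes changed in a comparison described further on (Rab11a, Rab32 and Rab5b), and because the other, Rab5a, is the only endolysosomal member with a listed window that holds CACGTG. This motif is the core of the sites that TFEB and related regulators of lysosomal genes bind. Each window is RefSeq sequence of build GRCm38.p6 from 250 bases before to 50 bases after the gene's start, written 5′ to 3′ on the strand of the gene. The files themselves name build GRCm39, so no deposited value was placed on these coordinates. Capitals mark CACGTG, or the GC box GGGCGG on either strand (CCGCCC on the other).
Rab11a (chr9:64737707-64738006, minus strand): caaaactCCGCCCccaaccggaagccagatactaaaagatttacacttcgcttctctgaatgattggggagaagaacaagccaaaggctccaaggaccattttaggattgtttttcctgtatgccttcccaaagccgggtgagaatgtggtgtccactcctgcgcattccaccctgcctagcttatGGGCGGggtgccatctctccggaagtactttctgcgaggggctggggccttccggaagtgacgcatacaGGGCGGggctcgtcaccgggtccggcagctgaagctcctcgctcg
Rab32 (chr10:10558158-10558457, minus strand): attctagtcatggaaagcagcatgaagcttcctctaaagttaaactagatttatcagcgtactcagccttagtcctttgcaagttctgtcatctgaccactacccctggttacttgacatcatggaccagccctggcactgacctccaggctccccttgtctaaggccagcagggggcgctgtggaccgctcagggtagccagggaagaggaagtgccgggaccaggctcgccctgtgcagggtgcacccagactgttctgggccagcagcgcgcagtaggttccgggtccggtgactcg
Rab5b (chr10:128696219-128696518, minus strand): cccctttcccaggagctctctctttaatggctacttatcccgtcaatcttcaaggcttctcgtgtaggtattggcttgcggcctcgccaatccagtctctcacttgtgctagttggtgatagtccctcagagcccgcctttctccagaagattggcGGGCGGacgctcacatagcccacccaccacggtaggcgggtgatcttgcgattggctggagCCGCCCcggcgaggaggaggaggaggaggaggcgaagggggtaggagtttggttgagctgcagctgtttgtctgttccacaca
Rab5a (chr17:53478984-53479283, plus strand): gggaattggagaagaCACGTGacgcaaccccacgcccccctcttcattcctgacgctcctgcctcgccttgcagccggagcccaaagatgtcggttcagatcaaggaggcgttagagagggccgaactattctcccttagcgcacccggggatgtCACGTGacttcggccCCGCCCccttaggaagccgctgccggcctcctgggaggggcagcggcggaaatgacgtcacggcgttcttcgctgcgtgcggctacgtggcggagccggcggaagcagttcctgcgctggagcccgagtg
The Rab11a window holds 3 GC boxes, that of Rab5b holds 2, and that of Rab32 holds neither motif. Rab5a has 2 copies of CACGTG and 1 GC box. A window was listed for 35 of the 38 genes. CACGTG, which reads alike on both strands, occurred in 5 of these 35 genes (14.3%: Rab20, Rab21, Rab23, Rab24 and Rab5a), and in 11.6% of their 43 windows against 7.15% of the 32851 windows of all genes. GGGCGG on either strand occurred in 28 of the 35 genes (80%), and in 74.4% of their windows against 35.7% of all windows. The windows of all genes were not limited by level as the Rab genes were. Genes of like level were not compared, so these shares do not set the Rab genes apart. A match describes letters and does not show that a protein binds there.

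Library totals ran from 3666413 to 7929499 counts, and the lowest count of any of the 38 genes in any library was 14. Grn itself checked the labels: it had 1729 ± 115 CPM (SD, n = 4) in WT and 12.7 ± 1.80 CPM in KO cells in DMSO, and 1607 ± 27.8 and 17.4 ± 5.03 CPM in rimeporide. The 15 microglia markers summed to 4716 to 5737 CPM over the 16 libraries. The summed markers of neurons and of astrocytes differed with the genotype. Summed over 12 genes each, neuron markers were at 10.6 to 21.4 CPM in the WT and at 61.3 to 119.9 CPM in the KO libraries, and astrocyte markers at 18.4 to 36.4 and at 103 to 149.9 CPM. Among the neuron markers, Gap43 was at 0 in 2 of the 4 WT libraries in DMSO and Stmn2 in 3, and in 0 of the KO libraries there. In DMSO all 7 tested neuron markers, of 12 listed, and 8 of 11 tested astrocyte markers passed as higher in KO cells. A marker such as Gap43 (0.097 CPM in WT and 11.9 CPM in KO cells in DMSO) passed the filter on low counts through KO libraries alone. These counts of tested markers are therefore not independent of the filter. Some members of the lists went the other way. Mean levels in WT and KO cells in DMSO were 0.445 and 0.289 CPM for Nefl, and 3.49 and 1.75 CPM for the astrocyte marker Gja1. Summed markers of the oligodendrocyte lineage (68.7 to 129.9 CPM in WT and 91.1 to 118.5 CPM in KO) and of fibroblasts, endothelium and mural cells (33.8 to 67.4 and 43.3 to 71.9 CPM) overlapped between the genotypes. A score over the 27 tested neuron, astrocyte and oligodendrocyte lineage markers lay between -1.26 and -0.61 in WT and between 0.65 and 1.16 in KO libraries, so it cannot be told apart from the genotype. A second score, the mean centred log2 CPM of 933 processed pseudogenes, set replicates 1, 3 and 4 of KO in DMSO (-0.77, -0.54 and -1.01) apart from all 13 other libraries (-0.14 to 0.59). Replicate 2 of KO in DMSO (0.12) lay with the other groups, and it was the lowest of its group for 26 of the 38 Rab genes. The counts that rest on KO in DMSO are therefore also given without that library.

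**Figure D1:**
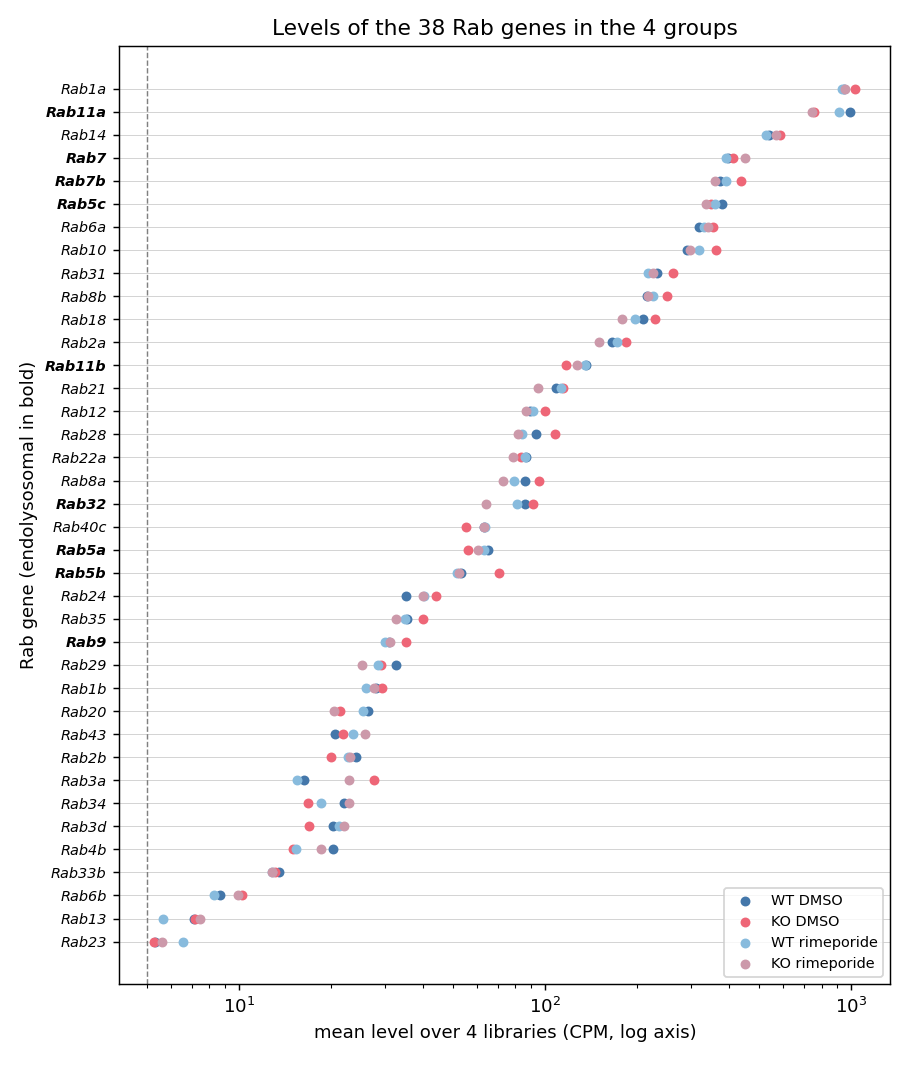
Mean level of each of the 38 Rab genes in the 4 groups, in CPM on a log axis, with the endolysosomal genes in bold and the minimum of 5 CPM as a dashed line. The means over all libraries span 5.70 to 966 CPM, and the 4 groups of a gene lie close together compared with the distance between the lowest and the highest gene.

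The Rab genes differed far more from each other than between groups. Rab1a, which serves transport from the endoplasmic reticulum (ER) to the Golgi, was highest with a mean of 966 CPM over the 16 libraries. It was followed by Rab11a (851 CPM) and by Rab14 (554 CPM), a Rab of transport between the Golgi, endosomes and phagosomes. Then came Rab7 (411 CPM), Rab7b (389 CPM) and Rab5c (355 CPM), so 4 of the 6 most abundant were endolysosomal. The method tags the 3′ end of each mRNA, so a CPM stands for a share of tags and was not divided by length. The 9 endolysosomal genes together made up 38.1% of the 6203 CPM of all 38. Within a group, the coefficient of variation of a Rab gene over the 4 libraries had a median of 9.04% in WT and 10.7% in KO cells in DMSO, and of 10.2% and 9.26% in rimeporide. Reads of a gene and of a near copy can be assigned to either. Of the 31-base words in the last 500 bases of a gene's transcripts, 98.7% were shared with Gm21983 for Rab4b, 49.1% with Gm45140 for Rab43, 16.7% with the pseudogene Rab9b-ps1 for Rab9, and 20.5% and 12.6% with many other genes for Rab33b and Rab8a. The levels of these 5 genes are uncertain to that extent. Gm21983 and Gm45140 had 2.62 and 9.40 CPM over all libraries. No shared word was found for 27 of the 38 genes, and Rab11a shared 4.55%.

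Under vehicle, few Rab genes differed between the genotypes. In DMSO, 3 of the 38 passed the test at an adjusted p under 0.05: Rab3a and Rab10 rose and Rab11a fell in KO cells. This is 7.89% of the genes, beside 18.6% of all 12272 tested genes (10.1% higher and 8.56% lower). The median log2 difference of KO minus WT was 0.08 for the 38 genes, against 0.01 for all tested genes. The 95% interval of the difference lay within 1.5-fold in both directions for 29 of the 38 genes. Tests were edgeR quasi-likelihood tests with Benjamini-Hochberg adjustment over all tested genes, here and below, and differences are log2 fold changes with their standard error (SE). In bulk RNA, fewer cells of a type and less RNA per cell cannot be told apart.

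Rab11a carries internalized receptors back to the cell surface through the recycling endosome. It was the only endolysosomal gene past the test by genotype in DMSO, where 4 of the 9 had an unadjusted p under 0.05. It stood at 917, 1077, 974 and 1005 CPM in the WT libraries in DMSO and at 743, 805, 669 and 812 CPM in the KO libraries. With rimeporide it stood at 962, 829.8, 869 and 978 CPM in WT and at 799, 753, 616 and 811 CPM in KO cells. Under either treatment every KO library was below every WT library. The difference in DMSO was -0.40 ± 0.092 (adjusted p = 0.00392), or 1.32-fold lower, and it passed in 23 of 24 alternative analyses, including all 16 that left out a library. With the neural marker score as a covariate it was -0.52, with an adjusted p of 0.683. In rimeporide the difference was -0.30 ± 0.092 and did not pass (adjusted p = 0.0529), but it did in 14 of 24 alternatives. Rimeporide itself was followed by a difference of -0.11 ± 0.092 in WT (adjusted p = 0.985) and of -0.01 ± 0.092 in KO cells (adjusted p = 0.97). The genotype differences in the 2 treatments differed by 0.10 ± 0.13 (adjusted p = 0.73). The paralog Rab11b, a less abundant recycling Rab, read 162, 119, 143 and 119 CPM in WT and 121, 103, 128 and 117 CPM in KO cells in DMSO. Those groups overlapped, and the difference of -0.22 ± 0.11 did not pass (adjusted p = 0.185). In rimeporide Rab11b stood at 153, 146, 135 and 106 CPM in WT and at 145, 124, 129 and 109.9 CPM in KO cells, again with overlap.

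**Figure D2:**
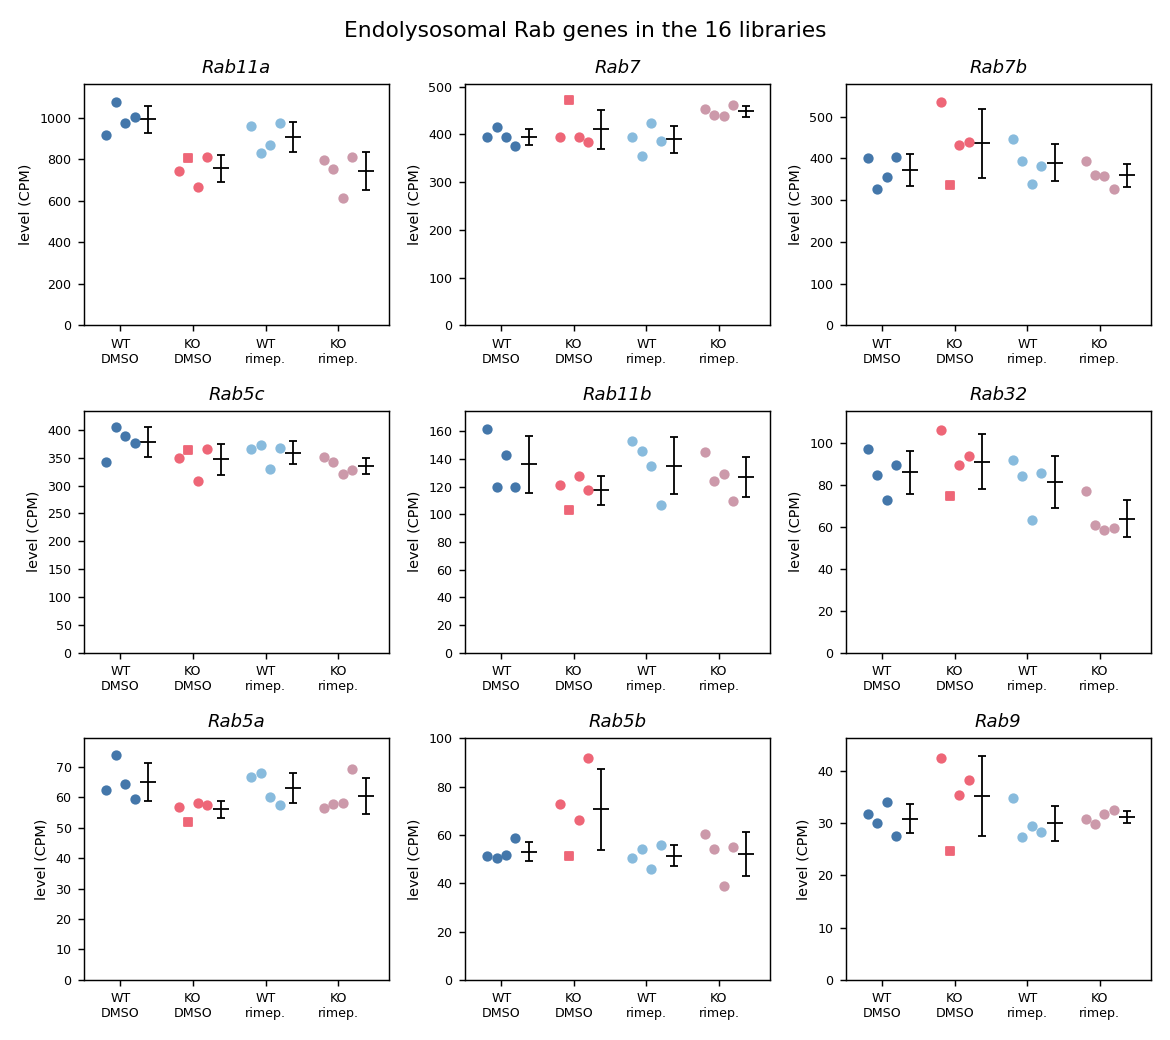
Levels in CPM of the 9 endolysosomal Rab genes, 1 panel each, with 1 point for each of the 4 libraries of a group, a bar showing the group mean with its SD, and the axis starting at 0. The square is replicate 2 of KO in DMSO. Rab11a is lower in all KO libraries than in all WT libraries under the same treatment, and the mean of Rab32 is lowest in KO in rimeporide.

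The 3 Rab5 genes encode the early endosome switch that recruits the tether EEA1 and the lipid kinase Vps34. Rab5c was the most abundant of them, with 342, 405, 389 and 376 CPM in WT and 350.2, 365, 308 and 366 CPM in KO cells in DMSO. In rimeporide Rab5c read 366, 373, 329.6 and 368 CPM in WT and 352, 342, 320.3 and 328 CPM in KO cells. All 4 groups overlapped, and its difference by genotype in DMSO was -0.13 ± 0.080 (adjusted p = 0.279). Rab5a read 62.5, 73.9, 64.5 and 59.4 CPM in WT and 56.8, 51.8, 58.1 and 57.4 CPM in KO cells in DMSO. Here the KO libraries were all below the WT libraries, by a narrow gap, and the difference of -0.22 ± 0.099 did not pass (adjusted p = 0.131). In rimeporide Rab5a overlapped between WT (66.7, 68.0, 60.2 and 57.5 CPM) and KO cells (56.5, 57.9, 58.2 and 69.3 CPM).

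Rab5b, the least abundant of the 3, varied most in KO cells in DMSO. It was at 51.2, 50.5, 51.7 and 58.9 CPM in WT and at 73.0, 51.1, 66.4 and 91.9 CPM in KO cells in DMSO. In rimeporide it was at 50.3, 54.0, 45.7 and 55.7 CPM in WT and at 60.5, 54.0, 39.0 and 55.1 CPM in KO cells. Replicates 1, 3 and 4 of KO in DMSO were above all 13 other libraries. The genotype difference in DMSO was 0.41 ± 0.15 with an adjusted p of 0.0531. Without KO in DMSO replicate 2 it was 0.51 with an adjusted p of 0.00561.

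Among the late endosome genes, Rab7 encodes the switch that recruits the HOPS tether and the motor adaptor RILP before fusion with lysosomes. Rab7 stood at 394, 415, 395 and 375 CPM in WT and at 395, 472, 394 and 383 CPM in KO cells in DMSO, with a difference of 0.05 ± 0.078 (adjusted p = 0.714). In rimeporide it stood at 394, 355, 424 and 385 CPM in WT and at 454, 440.3, 438 and 461 CPM in KO cells. There the KO libraries were all above the WT libraries, yet the difference of 0.19 ± 0.078 did not pass (adjusted p = 0.158). Rab7b, which in macrophages controls traffic of Toll-like receptors from late endosomes, read 402, 326, 356 and 404 CPM in WT and 536, 335, 432 and 440.3 CPM in KO cells in DMSO. Its difference of 0.22 ± 0.11 did not pass (adjusted p = 0.154), but did without KO in DMSO replicate 2 (0.31, adjusted p = 0.0159). With rimeporide Rab7b read 446, 393, 338 and 383 CPM in WT and 394, 359, 359 and 327 CPM in KO cells, which overlapped. Rab9, the least abundant endolysosomal member, read 31.7, 30.0, 34.0 and 27.5 CPM in WT and 42.5, 24.7, 35.3 and 38.1 CPM in KO cells in DMSO. Its values in rimeporide were 34.8, 27.4, 29.3 and 28.2 CPM in WT and 30.9, 29.8, 31.7 and 32.4 CPM in KO cells. No comparison of Rab9 passed, and its genotype difference in DMSO was 0.19 ± 0.13 (adjusted p = 0.346).

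Outside the endolysosomal set, Rab3a and Rab10 rose in KO cells in DMSO. Rab3a, a Rab of regulated secretion that is best known from synaptic vesicles, stood at 15.6, 16.4, 15.3 and 18.1 CPM in WT and at 25.2, 25.1, 32.3 and 27.5 CPM in KO cells. The groups did not overlap, and the difference was 0.74 ± 0.17 (adjusted p = 0.00429), or 1.67-fold. In rimeporide Rab3a read 20.5, 15.0, 12.7 and 13.7 CPM in WT and 28.1, 28.3, 18.8 and 16.2 CPM in KO cells, groups that overlapped, and the difference of 0.54 ± 0.18 did not pass (adjusted p = 0.0733). The call in DMSO held when any 1 library was left out. It was lost with the neural marker score as a covariate (0.38, adjusted p = 0.9) and with the pseudogene score (0.61, adjusted p = 0.119). All 7 tested neuron markers, of 12 listed, rose in the same comparison, with a median difference of 2.53. Markers such as Gap43 passed the filter on low counts through KO libraries alone, so that rise was partly fixed by the filter. Neuronal RNA and genotype cannot be told apart here.

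Rab10, which carries cargo from the Golgi and endosomes to the plasma membrane and is a LRRK2 substrate, stood at 319, 256, 262 and 321 CPM in WT and at 393, 279.7, 383 and 387 CPM in KO cells in DMSO. Replicates 1, 3 and 4 of KO were above every WT library, and replicate 2 was not. The difference was 0.31 ± 0.10 (adjusted p = 0.0353), or 1.24-fold. In rimeporide the groups overlapped, with 334, 346, 273 and 317 CPM in WT and 299, 317, 284 and 289 CPM in KO cells. The call in DMSO was lost without WT in DMSO replicate 2 (adjusted p = 0.138) or 3 (0.111), or KO in DMSO replicate 1 (0.12), 3 (0.0911) or 4 (0.111). It was also lost with the pseudogene score as a covariate, where the difference was 0.02.

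The count of 3 moved with single libraries. It was 10 without KO in DMSO replicate 2, 6 without WT in DMSO replicate 4, and 2 without WT in DMSO replicate 2 or 3 or KO in DMSO replicate 1, 3 or 4. The shares of all tested genes above are for all 16 libraries, and none is given for these fits. Whether these counts moved more than those of all genes was not tested, so they are not a result about the Rab genes. Rab7b (0.31), Rab5b (0.51), Rab31 (0.24), Rab8b (0.25) and Rab2a (0.21) were also higher in KO cells without KO in DMSO replicate 2, and Rab40c (-0.35) and Rab4b (-0.57) lower. Replicates 1, 3 and 4, which remain, are the libraries with the low pseudogene score. With that score as a covariate and all 16 libraries, 1 gene passed. How much of these differences goes with whatever sets those 3 libraries apart was not tested.

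With both genotypes in rimeporide, none of the 38 Rab genes passed in edgeR, where 7.46% of all tested genes did (5.14% higher and 2.32% lower). At an unadjusted p under 0.05 there were 7, and DESeq2 called 2. The difference was most negative for Rab32 (-0.36 ± 0.13, adjusted p = 0.099) and most positive for Rab3a, and its median was -0.04. Rab21, an early endosome Rab linked to integrin traffic, differed by -0.26 ± 0.088 (adjusted p = 0.0814). Rab2a was lower in all KO libraries than in all WT libraries in rimeporide (-0.20 ± 0.086, adjusted p = 0.197). KO in DMSO replicate 2 is in neither group compared here and enters only through the shared filter, scaling and spread. Without it 3 passed: Rab11a (-0.31), Rab21 (-0.28) and Rab32 (-0.37). Leaving out any other library gave 0 to 2. The 7.46% is for the fit of all libraries, and no share of all tested genes is given for the fits without a library.

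In WT cells none of the 38 Rab genes passed for rimeporide against DMSO in edgeR, and 0% of all tested genes did. Of the Rab genes, Rab4b alone had an unadjusted p under 0.05 (0.0498), and DESeq2 called 0. Of all tested genes, 676 had an unadjusted p under 0.05. For 35 of the 38 Rab genes the 95% interval lay within 1.5-fold in both directions. All 9 endolysosomal genes were among these 35, with differences from -0.11 (Rab11a) to 0.09 (Rab7b).

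In KO cells 5 of the 38 Rab genes fell with rimeporide and none rose. This is 13.2% of the genes, beside 14.8% of all tested genes (8.43% higher and 6.35% lower). The 5 were Rab32 and Rab5b of the endolysosomal set and Rab8a, Rab18 and Rab2a of the others. The median difference of rimeporide minus DMSO was -0.08 for the 38 genes and -0.01 for all tested genes. This comparison shares its DMSO libraries with that of genotype in DMSO. All 5 calls were lost with the pseudogene score as a covariate. That score was -1.01 to 0.12 in KO in DMSO and 0.13 to 0.59 in KO in rimeporide, so the groups did not overlap in it. The loss of a call there is not particular to these 5 genes. Rubcn, described below, kept its difference with that score (0.87) and did not pass either (adjusted p = 0.841). The share of all tested genes that passed in that fit is not given.

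Rab32, the Rab of lysosome-related organelles that also binds LRRK2, had the most negative difference of the 38. It stood at 106, 74.6, 89.3 and 93.8 CPM in KO cells in DMSO and at 76.9, 61.0, 58.5 and 59.2 CPM in KO cells in rimeporide. Replicate 1 in rimeporide was above replicate 2 in DMSO, and the groups otherwise did not overlap. The difference was -0.50 ± 0.12 (adjusted p = 0.0110), or 1.41-fold lower. In WT cells Rab32 read 97.0, 84.8, 72.7 and 89.6 CPM in DMSO and 92.0, 84.0, 63.2 and 85.7 CPM in rimeporide, with a difference of -0.06 ± 0.12 (adjusted p = 1). The effect in KO less that in WT was -0.44 ± 0.18, which did not pass (adjusted p = 0.189), so the genotypes were not shown to differ. The call in KO cells was lost without KO in DMSO replicate 1 (adjusted p = 0.0559), and with the pseudogene score the difference was -0.10.

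Rab5b, whose libraries are given above, fell by 0.43 ± 0.15 (adjusted p = 0.0495) and passed in 8 of 24 alternatives. The call was lost when any 1 library was left out except KO in DMSO replicate 2, WT in rimeporide replicate 3 and KO in rimeporide replicate 1. Those adjusted p values ran from 0.0513 to 0.249, the highest without KO in DMSO replicate 4, where the difference was -0.28. With the pseudogene score the sign turned, to 0.19. Rab7b differed by -0.26 ± 0.11 with rimeporide in KO cells, which did not pass (adjusted p = 0.105), and Rab7 by 0.14 ± 0.078 (adjusted p = 0.231). Both passed without KO in DMSO replicate 2, Rab7b at -0.36 (adjusted p = 0.00626) and Rab7 at 0.22 (adjusted p = 0.0299).

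Rab8a, which drives exocytosis from the Golgi and recycling endosomes and is a LRRK2 substrate, stood at 95.7, 83.4, 100.2 and 102 CPM in KO cells in DMSO and at 81.1, 61.8, 76.4 and 71.3 CPM in rimeporide. Of the 5 genes it was the only gene whose rimeporide libraries were all below the DMSO libraries. The difference was -0.38 ± 0.10 (adjusted p = 0.0142), or 1.30-fold lower. In WT cells Rab8a read 93.6, 75.3, 81.5 and 92.5 CPM in DMSO and 79.7, 77.5, 72.9 and 85.9 CPM in rimeporide, a difference of -0.10 ± 0.10 (adjusted p = 0.985). The call in KO cells was lost without KO in DMSO replicate 4 (adjusted p = 0.0649) or KO in rimeporide replicate 2 (0.0615).

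Rab18, a Rab of the ER and of lipid droplets, stood at 247, 197, 220.1 and 249 CPM in KO cells in DMSO and at 179, 167, 165 and 202 CPM in rimeporide. The groups overlapped through replicate 2 in DMSO and replicate 4 in rimeporide. The difference was -0.34 ± 0.093 (adjusted p = 0.0169), and it was lost without KO in DMSO replicate 1 (adjusted p = 0.0684) or 4 (0.0762), or KO in rimeporide replicate 2 (0.0573) or 3 (0.064). In WT cells, where its groups overlapped, Rab18 read 195, 210.0, 212 and 217 CPM in DMSO and 201, 196, 172 and 219.6 CPM in rimeporide.

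Rab2a, which acts at the Golgi and in fusion of late endosomes with lysosomes, stood at 207, 149, 184 and 195 CPM in KO cells in DMSO and at 146, 151, 153 and 151 CPM in rimeporide. The rimeporide libraries lay close together, and replicate 2 in DMSO lay among them. The difference was -0.28 ± 0.085 (adjusted p = 0.0299). It was lost without KO in DMSO replicate 1 (adjusted p = 0.132), 3 (0.0534) or 4 (0.11), or KO in rimeporide replicate 1 (0.0566), 2 (0.063) or 3 (0.0643), and with only the 2 groups in the fit (0.0814). In WT cells Rab2a read 161, 155, 174 and 173 CPM in DMSO and 183, 167, 169 and 168 CPM in rimeporide.

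**Figure D3:**
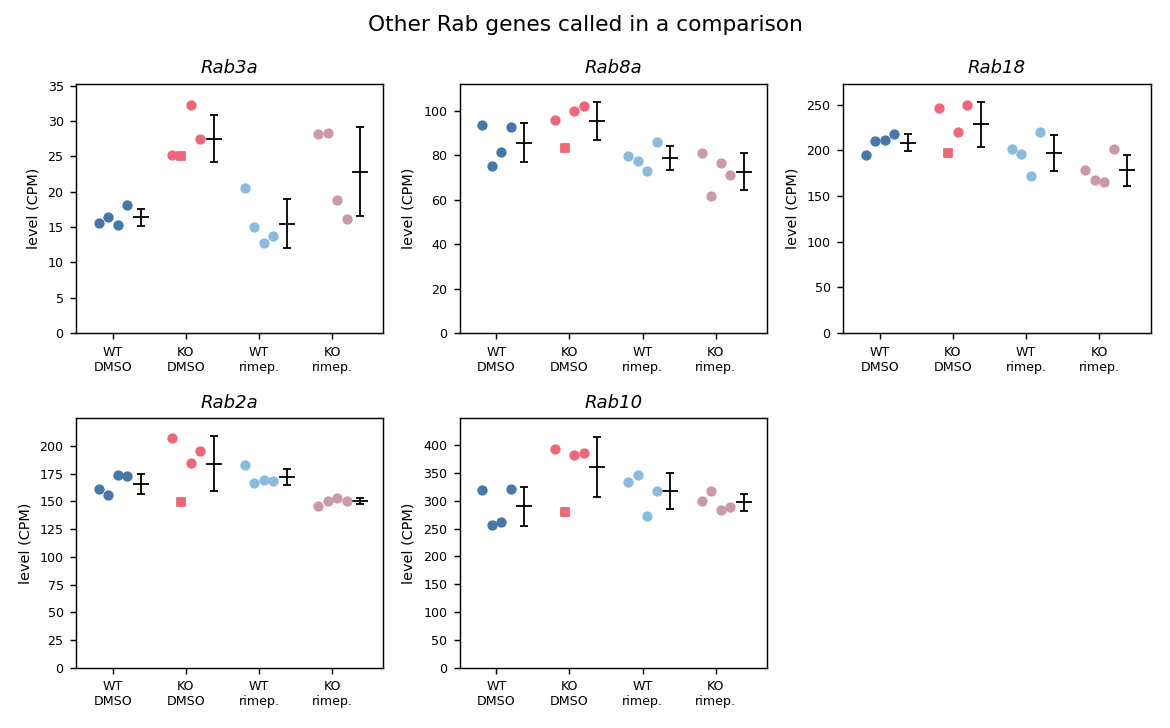
Levels in CPM of the 5 called Rab genes outside the endolysosomal set, with 1 point for each of the 4 libraries of a group, a bar showing the group mean with its SD, and the axis starting at 0. The square is replicate 2 of KO in DMSO. Rab3a is higher in all KO than in all WT libraries in DMSO, and Rab8a is lower in all KO libraries in rimeporide than in all KO libraries in DMSO.

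The count of 5 moved with single libraries too. It was 13 without KO in DMSO replicate 2, 3 without KO in DMSO replicate 3, 2 without KO in rimeporide replicate 3, and 1 without KO in DMSO replicate 1 or 4 or KO in rimeporide replicate 2. No share of all tested genes is given for these fits, so whether the counts moved more than those of all genes was not tested. Besides Rab7b and the 5 above, Rab10 (-0.36), Rab31 (-0.29), Rab21 (-0.31), Rab28 (-0.48) and Rab35 (-0.40) were lower in rimeporide without KO in DMSO replicate 2. Rab7 (0.22) and Rab40c (0.34), a Rab that works with ubiquitin ligases, were higher there.

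The effect of rimeporide was not shown to differ between genotypes for any of the 38 genes. In the test of that interaction 0 passed in edgeR, where 0.0163% of all tested genes did, 8 had an unadjusted p under 0.05, and DESeq2 called 0. The interaction was most negative for Rab32. It was -0.41 ± 0.14 for Rab10 (adjusted p = 0.138), -0.40 ± 0.21 for Rab5b (adjusted p = 0.309) and -0.35 ± 0.12 for Rab2a (adjusted p = 0.136). Its 95% interval lay within 1.5-fold for 22 of the 38 genes. Without KO in DMSO replicate 2, 6 passed: Rab7b (-0.45), Rab10 (-0.51), Rab2a (-0.43), Rab21 (-0.39), Rab32 (-0.51) and Rab4b (0.82). The 0.0163% is from the fit of all libraries. No share of all tested genes is given for the fit without that library, so its count has none to be read against.

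**Figure D4:**
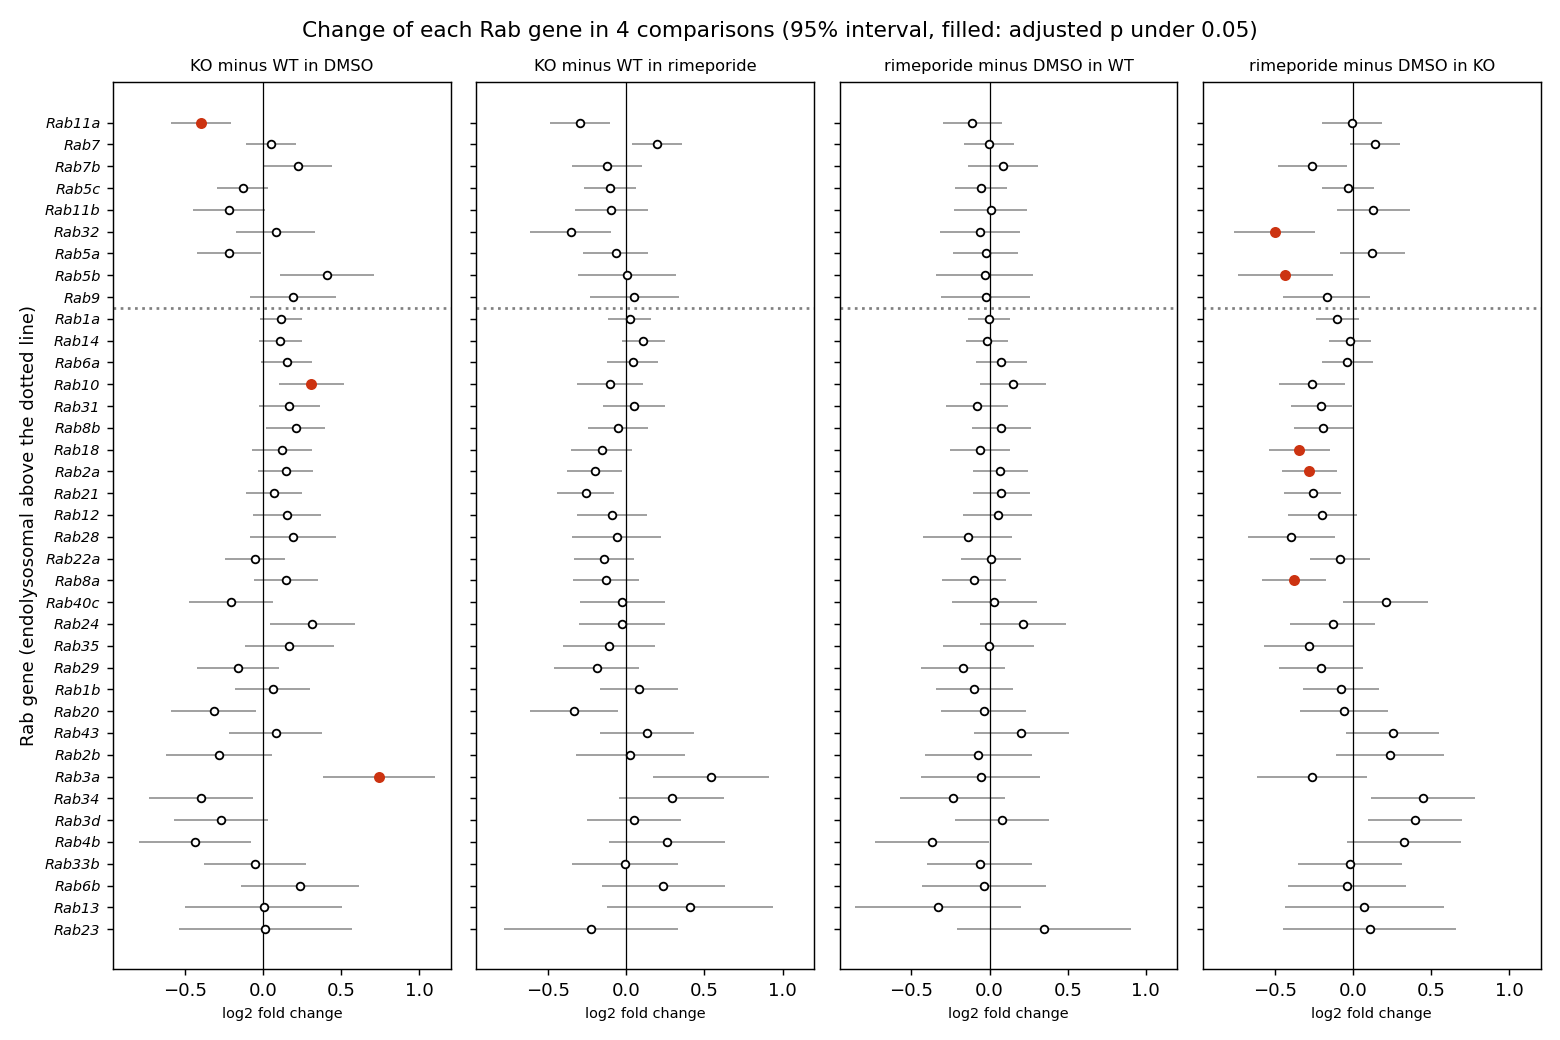
Log2 fold change of each of the 38 Rab genes in 4 comparisons, with its 95% interval, filled where the adjusted p was under 0.05, and the endolysosomal genes above the dotted line. The plot has 3 filled points for KO minus WT in DMSO, 0 in the panels for KO minus WT in rimeporide and rimeporide minus DMSO in WT, and 5 for rimeporide minus DMSO in KO, all of them below 0.

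The shares of all tested genes to read these counts against are 10.1% higher and 8.56% lower by genotype in DMSO, and 8.43% higher and 6.35% lower with rimeporide in KO cells. By role, the 10 Rabs of ER and Golgi traffic (9.29 to 966 CPM) had 0 genes past the test by genotype in DMSO in edgeR and in DESeq2, with 1 at an unadjusted p under 0.05, and 2 lower with rimeporide in KO cells, Rab18 and Rab2a. Of the 10 Rabs of recycling, exocytosis and secretion (6.86 to 554 CPM), 2 were higher by genotype in DMSO and 1, Rab8a, lower with rimeporide in KO cells. The 7 other endocytic and phagosomal Rabs (23.4 to 234 CPM), such as Rab20 of the phagosome, had none past the test by genotype in DMSO in either tool, with 2 at an unadjusted p under 0.05. Rab14 did not overlap between the genotypes in DMSO: its KO libraries (574 to 600.1 CPM) were above its WT libraries (507 to 559 CPM), by 0.11 ± 0.066 (adjusted p = 0.254). Rab34, of the Golgi and the primary cilium, had the opposite order in DMSO (-0.40 ± 0.16, adjusted p = 0.0882). Its difference with rimeporide in KO cells was 0.45 ± 0.16 (adjusted p = 0.0616). Summed over the 9 endolysosomal genes, the level was 2460 to 2581 CPM in WT and 2179 to 2424 CPM in KO cells in DMSO, and 2295 to 2564 and 2048 to 2369 CPM in rimeporide. The other 29 summed to 3692 to 3901 CPM in WT and 3724 to 4383 CPM in KO cells in DMSO. Rab11a makes up the largest share of the first sum, so the sums are not independent of its difference.

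Under the minimum of 5 CPM, 7 further Rab symbols could be tested, and those named here were chosen after their values were seen. Of these, Rab3c, Rab15 and Rab3b passed the filter on low counts through KO libraries alone. Their tests by genotype are therefore not independent of the filter, and a rise in KO cells was partly fixed by it. Rab3c, a Rab of regulated secretion like Rab3a, read 0.858, 1.91, 1.03 and 1.22 CPM in WT and 4.54, 5.65, 5.86 and 4.80 CPM in KO cells in DMSO. The groups did not overlap, and the difference was 2.06 ± 0.38 (adjusted p = 0.000441). In rimeporide the difference of Rab3c was 2.08 ± 0.44 (adjusted p = 0.00302). With the neural marker score as a covariate both turned negative and neither passed, with -0.95 ± 1.52 in DMSO (adjusted p = 0.879) and -0.75 in rimeporide. The score cannot be told apart from the genotype, so the sign of these values is uncertain. Rab15, another Rab rich in neural tissue, also rose in KO cells in DMSO (1.53 ± 0.43, adjusted p = 0.0164), a call lost without WT in DMSO replicate 4 (adjusted p = 0.0559) or KO in DMSO replicate 1 (0.0569). With the neural marker score the difference of Rab15 was larger, 2.27 ± 1.84, and did not pass (adjusted p = 0.732). Rab3b was at 0, 0.238, 0.216 and 0 CPM in WT and at 2.24, 1.45, 3.86 and 2.46 CPM in KO cells in rimeporide (adjusted p = 0.00132), where a WT library held at most 1 count. Rab4a, of fast recycling from early endosomes, passed in DMSO at an adjusted p of 0.0473 (0.88 ± 0.31) and in 2 of 24 alternatives. Its call was lost when any 1 library was left out except KO in rimeporide replicates 1 and 4 (adjusted p = 0.0513 to 0.127).

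The proteins that load, switch and read Rabs were taken from lists of known regulators and effectors. In KO against WT cells in DMSO, 1 of the 7 tested genes of prenylation, escort and GDI passed. This was Rabac1, a membrane protein that helps release Rabs from GDI, which fell from 195 ± 38.1 to 151 ± 17.8 CPM (-0.38 ± 0.13, adjusted p = 0.0430). The call was lost without WT in DMSO replicate 1, 2 or 3, KO in DMSO replicate 1, 3 or 4, or KO in rimeporide replicate 2 (adjusted p = 0.0518 to 0.182). Of 38 tested exchange factors, 2 rose and 1 fell, beside 10.1% and 8.56% of all tested genes. Dennd2a, an exchange factor for Rab9, rose from 3.80 ± 1.46 to 8.29 ± 1.25 CPM (1.08 ± 0.28, adjusted p = 0.00899). Ric1, a subunit of the Rab6 exchange factor, rose by 0.41 ± 0.14 (adjusted p = 0.0439). That call was lost without any 1 WT library in DMSO, KO in DMSO replicate 1, 3 or 4, or any 1 KO library in rimeporide (adjusted p = 0.0522 to 0.141). Sbf2, an exchange factor of the myotubularin family, fell by 0.32 ± 0.095 (adjusted p = 0.0196), and was lower in KO cells in rimeporide too (-0.36 ± 0.095, adjusted p = 0.0192). In DMSO the call of Sbf2 was lost without WT replicate 1 or 3, or KO replicate 1 or 4, and in rimeporide without WT replicate 2 or 4 or KO replicate 2 (adjusted p = 0.0509 to 0.0862).

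Of 36 tested GTPase-activating proteins, 2 rose and 5 fell in KO cells in DMSO, beside 10.1% and 8.56% of all tested genes. Tbc1d23, a Golgi protein that captures vesicles from endosomes, fell from 26.8 ± 2.10 to 19.0 ± 1.36 CPM (-0.50 ± 0.13, adjusted p = 0.0108). In rimeporide it was at 27.3 ± 1.40 CPM in WT and 17.7 ± 3.30 CPM in KO cells (-0.64 ± 0.14, adjusted p = 0.00362). Both calls held when any 1 library was left out. Tbc1d8 fell from 10.2 ± 1.30 to 5.87 ± 1.35 CPM in DMSO (-0.79 ± 0.21, adjusted p = 0.00942). With the neural marker score, which cannot be told apart from the genotype, its difference was 0.15 and did not pass (adjusted p = 0.973). Tbc1d22a rose (0.55 ± 0.16, adjusted p = 0.0159), a call lost without WT in DMSO replicate 2 (adjusted p = 0.059) or KO in DMSO replicate 1 (0.0906) or 4 (0.0726).

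Readers of the switched-on Rabs were taken in 3 lists, beside 18.6% of all tested genes that passed by genotype in DMSO and 7.46% in rimeporide. None of the 13 early endosome effectors and none of the 17 tested recycling and exocytic effectors passed by genotype in DMSO in edgeR or DESeq2, with 2 and 1 at an unadjusted p under 0.05. In rimeporide Exoc6b, a subunit of the exocyst, was lower in KO cells (-0.74 ± 0.22, adjusted p = 0.0413). It was lost without WT in rimeporide replicate 2 or 4 or KO in rimeporide replicate 1, 2 or 3 (adjusted p = 0.0871 to 0.157). Of 24 late endosome and lysosome effectors, Plin3 rose and Vps29 fell in DMSO. Plin3, a lipid droplet coat protein also described as a Rab9 effector, went from 52.4 ± 4.06 to 71.5 ± 8.33 CPM (0.44 ± 0.098, adjusted p = 0.00287). Vps29, of the retromer complex that Rab7 recruits, went from 236 ± 17.3 to 192 ± 9.61 CPM (-0.30 ± 0.082, adjusted p = 0.0124), lost without WT in DMSO replicate 3 (adjusted p = 0.0613).

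Rilpl1 and Rilpl2, relatives of RILP that bind Rab8a and Rab10 once LRRK2 has phosphorylated them, both rose in KO cells in DMSO, from a list of 9 tested genes of LRRK2 and Rab phosphorylation of which 2 rose and 1 fell, beside 10.1% and 8.56% of all tested genes. Rilpl2 stood at 31.7, 29.2, 25.6 and 30.9 CPM in WT and at 48.2, 40.5, 41.4 and 43.4 CPM in KO cells in DMSO. In rimeporide it stood at 25.7, 30.0, 25.9 and 31.4 CPM in WT and at 42.1, 37.3, 36.0 and 39.6 CPM in KO cells. Under either treatment all KO libraries were above all WT libraries. The difference was 0.56 ± 0.11 in DMSO (adjusted p = 0.00116), which held when any 1 library was left out, and 0.45 ± 0.12 in rimeporide (adjusted p = 0.0158). The latter was lost without WT in rimeporide replicate 1 (adjusted p = 0.0726) or 3 (0.061) or KO in rimeporide replicate 1 (0.0657). Rilpl1 was higher in KO cells in DMSO (0.93 ± 0.23, adjusted p = 0.00608), from 4.41 ± 0.913 to 8.38 ± 2.08 CPM. In rimeporide its means were 5.98 ± 0.308 CPM in WT and 5.45 ± 0.767 CPM in KO cells. Spag9 (JIP4), another adaptor that reads phosphorylated Rabs, fell in DMSO from 177 ± 24.4 to 134 ± 21.7 CPM (-0.41 ± 0.12, adjusted p = 0.0221). Its call was lost without WT in DMSO replicate 2 (adjusted p = 0.0934) or KO in DMSO replicate 1 (0.0989) or 3 (0.0673). Of the 12 regulators and effectors named for KO against WT in DMSO, none passed with the neural marker score as a covariate, where the SE widened, since the score and the genotype cannot be told apart. The differences there were as large or larger for several, such as Rilpl2 (0.67 ± 0.46), Plin3 (0.54 ± 0.40), Dennd2a (1.48 ± 1.18) and Spag9 (-0.58 ± 0.47), and near 0 for Vps29 (-0.04 ± 0.32). With the pseudogene score Tbc1d23 and Tbc1d8 passed. Of the other 10, Dennd2a (0.99, adjusted p = 0.11), Sbf2 (-0.30, adjusted p = 0.161), Rilpl2 (0.42, adjusted p = 0.0696) and Vps29 (-0.22, adjusted p = 0.239) kept most of their difference. It shrank more for Plin3 (0.27, adjusted p = 0.193), Rilpl1 (0.46, adjusted p = 0.427) and Spag9 (-0.15, adjusted p = 0.631). Near 0 were Ric1 (0.07), Tbc1d22a (0.02) and Rabac1 (0.0065).

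Rubcn encodes Rubicon, a Rab7-binding protein of autophagy and LC3-associated phagocytosis, and its level was highest in KO cells in rimeporide. It read 12.4, 12.3, 9.62 and 8.72 CPM in WT and 10.2, 9.72, 10.4 and 10.7 CPM in KO cells in DMSO. In rimeporide it read 11.6, 8.80, 11.4 and 11.9 CPM in WT and 18.4, 15.7, 17.8 and 20.6 CPM in KO cells. The last 4 libraries were above all the others. The difference was 0.84 ± 0.16 for rimeporide in KO cells (adjusted p = 0.00369) and 0.72 ± 0.16 for KO against WT in rimeporide (adjusted p = 0.00461). Both held when any 1 library was left out. With the pseudogene score as a covariate the former was 0.87 with an adjusted p of 0.841. With the neural marker score the latter was 0.97 and did not pass. Sbf2, Tbc1d23, Exoc6b and Rilpl2 did not pass by genotype in rimeporide with that score either, and it cannot be told apart from the genotype. The interaction of Rubcn was 0.78 ± 0.23 and did not pass (adjusted p = 0.101).

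With rimeporide in KO cells, 8 of the 144 tested genes on the 7 lists of regulators and effectors passed, beside 14.8% of all tested genes. Vps29 rose (0.34 ± 0.082, adjusted p = 0.00865), to 241 ± 25.2 CPM, and the call held when any 1 library was left out. Gapvd1, an exchange factor for Rab5, rose by 0.38 ± 0.11 (adjusted p = 0.0210), and was lost without KO in DMSO replicate 1 or 4 or KO in rimeporide replicate 2 or 3 (adjusted p = 0.0509 to 0.0946). Rab3gap1, a subunit of the complex that inactivates Rab3 and activates Rab18, fell from 101 ± 14.1 to 76.3 ± 6.22 CPM (-0.39 ± 0.10, adjusted p = 0.0142). The Rab3gap1 call was lost without KO in DMSO replicate 1 (adjusted p = 0.0731) or 4 (0.0515). Of the other GTPase-activating proteins, Tbc1d17 rose (0.59 ± 0.17, adjusted p = 0.0201) and Tbc1d22a fell (-0.53 ± 0.16, adjusted p = 0.0240). Each was lost without KO in DMSO replicate 1 or 4 or KO in rimeporide replicate 3 (adjusted p = 0.06 to 0.123). Bloc1s3, of a complex that sorts cargo to lysosome-related organelles, fell (-0.70 ± 0.22, adjusted p = 0.0321) and Spag9 rose (0.41 ± 0.12, adjusted p = 0.0260). Bloc1s3 was lost without KO in DMSO replicate 1 or 4 or KO in rimeporide replicate 2 or 3, and Spag9 without KO in DMSO replicate 1, 3 or 4 or KO in rimeporide replicate 2, 3 or 4 (adjusted p = 0.0526 to 0.135). With the pseudogene score as a covariate none of these regulators and effectors passed in this comparison. The 2 KO groups did not overlap in that score, and the share of all tested genes that passed there is not given. The loss can therefore not be read as particular to these genes. In WT cells with rimeporide, and in the interaction, none of the 144 tested genes on the 7 lists passed in edgeR or DESeq2, with 4 and 14 of them at an unadjusted p under 0.05.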

How the data were processed

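RNA of 16 samples was made into 3′ tag libraries with molecular identifiers (QuantSeq), per the labels' protocols. Per the submitters' processing notes Salmon and build GRCm39 were used. The sources used here give no versions or annotation release, nor whether duplicates were removed by identifier. The deposited table holds the authors' expected counts per gene, of which 13.7% were not whole, and rounding them changed 0.0207% of the total. The authors' deposited log2 CPM values served only as a check. CPM was computed from the counts over the library total. RIN was 9.9 or 10 where given. edgeR 4.0.16 (limma 3.58.1, R 4.3.3) was run on rounded counts of 12272 genes passing filterByExpr (minimum count 10, total 15), with TMM scaling, 1 mean per group, quasi-likelihood F tests and Benjamini-Hochberg adjustment. SE is the log2 change divided by the root of F, and 95% intervals use the fit's degrees of freedom. The scripts were tested on simulated data. No libraries were duplicates. P-values measure the spread between these libraries. Members and lists were chosen with earlier results of these data known. Library values are given for endolysosomal and called members. Up to 3 called genes per list and comparison are named, with library values, means or differences. Rab14, Rab21, Rab34 and the genes called without a library were named after their values were seen. Alternatives were DESeq2 1.42.0 (size factors; test), 2 filters, a replicate block, only the 2 groups compared, each library left out, and the 2 scores as covariates. Pseudogene types and shared words came from GENCODE M21.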

Additional observations from a re-analysis of the deposited data

Results flagged for a closer look

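Within each group of 4 libraries, the highest and lowest values of the 14 Rab genes given library by library were compared with their group, which made 56 groups, and 7 of them held 1 library farther from the other 3 than Dixon's 95% critical value allows. Chance gives about 1 such group in 20. In KO in DMSO, replicate 2 was high for Rab7 (472 CPM, nearest library 395 CPM) and low for Rab10 (279.7 CPM, nearest 383 CPM). In KO in rimeporide, replicate 1 was high for Rab32 (76.9 CPM, nearest 61.0 CPM) and replicate 4 for Rab5a (69.3 CPM, nearest 58.2 CPM). In WT in rimeporide, replicate 3 was low for Rab5c (329.6 CPM, nearest 366 CPM) and replicate 1 high for Rab2a (183 CPM, nearest 169 CPM). In WT in DMSO, replicate 4 was high for Rab5b (58.9 CPM, nearest 51.7 CPM).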

How the results depend on the processing

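Against 3 Rab genes past the test for KO against WT in DMSO, the replicate block gave 6, the pseudogene score as a covariate 1 and the neural marker score 0. Leaving out single libraries gave 2 to 10. For KO against WT in rimeporide, with 0 in the edgeR fit, DESeq2 size factors, no filter, a filter of at least 1 CPM in 4 libraries, only the 2 groups compared, and the pseudogene score each gave 1. The DESeq2 test and the replicate block gave 2 there (under the block Rab11a and Rab32), and leaving out libraries 0 to 3. For rimeporide in KO cells, with 5, no filter gave 8, the replicate block 9, only the 2 groups compared 3 and the pseudogene score 0, and leaving out libraries 1 to 13. The interaction had 1 without a filter and 0 to 6 with libraries left out, and rimeporide in WT cells had 0 throughout (0 to 0). The share of all tested genes that passed in each alternative is not given beside these counts. The 8 calls of Rab genes passed in 147 of 192 alternatives and kept their direction in 191, the exception being Rab5b for rimeporide in KO cells (0.19 with the pseudogene score). With that score Rabac1 also turned (0.0065, DMSO), as did Tbc1d22a (0.15) and Bloc1s3 (0.23) for rimeporide in KO cells. With the neural marker score Tbc1d8 (0.15, DMSO) and Rab3c (-0.95 in DMSO and -0.75 in rimeporide) turned, and none of these values passed. The cause was not tested. The labels do not say that equal replicate numbers mark a shared source, and the data did not show that they pair the libraries throughout: deviations from the group means of same-numbered libraries correlated at -0.03 to 0.23 over 24 pairs, 11 of them over 0.1, and not every library correlated best with its own number. The 4 libraries of a group, and the low counts of Rabs under 5 CPM, limit the size of difference that can be called.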
